A study of Mus musculus with 1504 samples.

Results

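The genes described are 6 transcription factors known from endothelium, the cells that line vessels: Sox7, Sox17, Sox18, Erg, Gata2 and Epas1. They were taken by name from the rows of the deposited read count matrix, and all 6 of them were found among its 21947 genes. No rule on measured values chose them, but earlier results of these data were known. Their levels are given over the matrix's column sets and over classes of cells named from marker genes.

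Single cells were sorted by fluorescence from lungs of adult C57BL/6 mice and read with SMART-seq2, which copies and sequences whole polyadenylated transcripts. The labels give 769 cells of Cldn5(BAC)eGFP mice, in which a bacterial artificial chromosome with Cldn5 (claudin 5, of endothelial tight junctions) drives eGFP. They give 374 cells of Pdgfrb-eGFP mice and 361 cells of Pdgfrb-eGFP/NG2-dsRed mice. Pdgfrb is the receptor of platelet-derived growth factor B on pericytes, smooth muscle and fibroblasts, and NG2 is the product of Cspg4, found on mural cells. Ages are 12 to 15 weeks in the sample labels and 10 to 19 weeks in the design text. All mice carried reporters and none is labelled as treated. The names of the matrix's columns give sets of cells. EC1 (243 cells), EC2 (275 cells) and EC3 (251 cells) were taken as Cldn5-eGFP. The names Mural1 (128 cells), Mural2 (233 cells) and Mural3 (374 cells) give no reporter. Animals, plates and dates are not labelled. Each class was therefore 1 sample, no test across samples could be made, and no p-value is given. Levels of the 6 genes in the endothelial classes are also given by column set, but the sets are not known to be separate animals. A level with no set named is a sum over sets.

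SOX7, SOX17 and SOX18 form the SOXF group of SRY-related factors, which bind DNA through a shared HMG box, act partly in place of one another in developing vessels, and are tied to arterial identity (Sox17) and to the start of lymphatic vessels (Sox18). ERG is the ETS-family factor best known for keeping endothelial genes such as Cdh5 and Cldn5 on. GATA2 is a zinc-finger factor of endothelium and blood progenitors. EPAS1, also called HIF-2α, is an oxygen-regulated factor that pairs with ARNT; lung endothelium is known to be rich in its transcript.

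Classes of cells were built from other genes, so that none of them rests on the 6 factors. Clusters 1 and 3, with 351 and 305 cells, held on average 76.0% and 77.6% of the general capillary markers per cell and are called the capillary cells here (656 cells). Among the 10 leading genes of cluster 1 there were 3 arterial markers, Efnb2, Hey1 and Gja4, against 2 general capillary markers, so these clusters are kept by number. There were 78 aerocyte-like cells, the large capillary cells of gas exchange, and 22 lymphatic-like cells. The mural sets gave 71 pericyte-like, 69 smooth muscle-like, 399 fibroblast-like and 44 chondrocyte- or perichondrial-like cells. No arterial and no venous cluster formed. A cluster of 165 cells with epithelial and leukocyte markers together was called mixed and enters no class. Of its cells, 49.7% held reads of several endothelial and several mural or fibroblast markers at once, against 7.78% of all cells. Summed over 12 endothelial markers, the level was 15872 CPM in lymphatic-like, 39987 in aerocyte-like and 30965 in capillary cells. It was 1711 in pericyte-like, 517 in smooth muscle-like, 354 in chondrocyte- or perichondrial-like and 529 in fibroblast-like cells. Emcn was the only 1 of the 12 markers with no read in pericyte-like cells. No 2 cells had the same column name or the same profile. CPM, the usual depth-scaled count, divides a gene's reads by all reads, both summed over a class. In such sums, fewer cells with a transcript and less transcript per cell cannot be told apart, so the share of cells with a read is given beside the level.

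In the GRCm38 annotation the genes lie on 6 chromosomes. Sox7 lies at chr14:63943673-63950732 (+ strand), Sox17 at chr1:4490931-4497354 (- strand) and Sox18 at chr2:181669836-181671640 (- strand). Erg lies at chr16:95359169-95586593 (- strand), Gata2 at chr6:88193891-88207032 (+ strand) and Epas1 at chr17:86753700-86833410 (+ strand). Sox17 overlaps Gm37587 on the opposite strand and Epas1 overlaps AC096777.1 on its own strand. SMART-seq2 reads carry no strand, so reads of overlapping genes cannot be told apart. The longest identical run between transcripts of any pair of the 6 genes was 29 bases.

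Promoter windows of Gata2 and Erg, 250 bases before to 50 bases after an annotated start, were available from RefSeq on GRCm38.p6. They are shown because ETS, GATA and SOX factors are described as acting on one another's genes in endothelium. Capitals mark each match, on either strand, to the ETS core, the GATA motif or the SOX motif spelled out under the sequences.
Gata2, chr6:88193641-88193940, + strand: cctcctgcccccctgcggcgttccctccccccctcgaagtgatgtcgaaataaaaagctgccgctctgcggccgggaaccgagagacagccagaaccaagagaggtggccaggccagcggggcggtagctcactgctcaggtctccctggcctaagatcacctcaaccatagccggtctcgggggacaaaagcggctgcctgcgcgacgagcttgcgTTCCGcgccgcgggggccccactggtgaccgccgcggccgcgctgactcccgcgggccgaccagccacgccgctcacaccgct
Erg, chr16:95586544-95586843, - strand: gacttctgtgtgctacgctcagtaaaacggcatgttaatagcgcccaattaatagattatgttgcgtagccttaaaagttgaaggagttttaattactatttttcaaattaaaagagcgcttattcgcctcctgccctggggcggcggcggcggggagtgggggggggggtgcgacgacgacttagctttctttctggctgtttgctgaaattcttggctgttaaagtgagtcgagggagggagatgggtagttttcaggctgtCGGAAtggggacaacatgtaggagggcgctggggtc
Erg, chr16:95459299-95459598, - strand: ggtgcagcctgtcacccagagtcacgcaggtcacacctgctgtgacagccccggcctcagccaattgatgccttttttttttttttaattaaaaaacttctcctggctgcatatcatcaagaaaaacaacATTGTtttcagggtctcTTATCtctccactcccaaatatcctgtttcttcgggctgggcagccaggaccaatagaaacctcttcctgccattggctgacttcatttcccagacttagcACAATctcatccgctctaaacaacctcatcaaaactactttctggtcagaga
The Gata2 window held 1 ETS core, whose first base lay at -33 on the reverse strand, and its GC content was 69.3%. The first Erg window held 1 ETS core at 15, on the forward strand, with a GC content of 50.3%. The second Erg window held SOX motifs at -120 and -2 and a GATA motif at -103. Another start of each gene, at chr6:88198414-88198713 and chr16:95530316-95530615, held no ETS core, GATA motif or SOX motif. The ETS core searched was CGGAA, found in 29.9% of 32851 promoter windows of the same length. The GATA motif was GATAA, found in 25.4% of them. The SOX motif was ACAAT, found in 31.0% of them. The core of the hypoxia response element, ACGTG, was found in 19.6% of all windows and in none of those shown, but once at the other Gata2 start, at -3 on the reverse strand. The CCAAT box was found in 37.4% of all windows, with 1 match in the first and 3 in the second Erg window shown and none in that of Gata2; the other Gata2 start held 2. No match in these windows overlapped another. Matches of this length are common, describe the windows and show no binding.

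In capillary cells the order per kb of exon, the scale on which levels of different genes can be set side by side, was Epas1, Sox18, Sox7, Gata2, Sox17 and Erg. Epas1 reached 1015 CPM per kb, Sox18 548, Sox7 206, Gata2 80.0, Sox17 70.9 and Erg 9.81. Every capillary cell held an Epas1 read after thinning to 50000 reads, which removes differences in depth between cells. The share was 84.3% for Sox18, 77.3% for Gata2, 61.7% for Sox17, 59.8% for Sox7 and 13.0% for Erg. Clusters 1 and 3 gave nearly equal levels of Sox7, 681 and 674 CPM, and of Epas1, 5697 and 5646 CPM. Erg differed most in ratio, with 38.7 CPM in cluster 1 and 28.4 CPM in cluster 3.

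**Figure D1:**
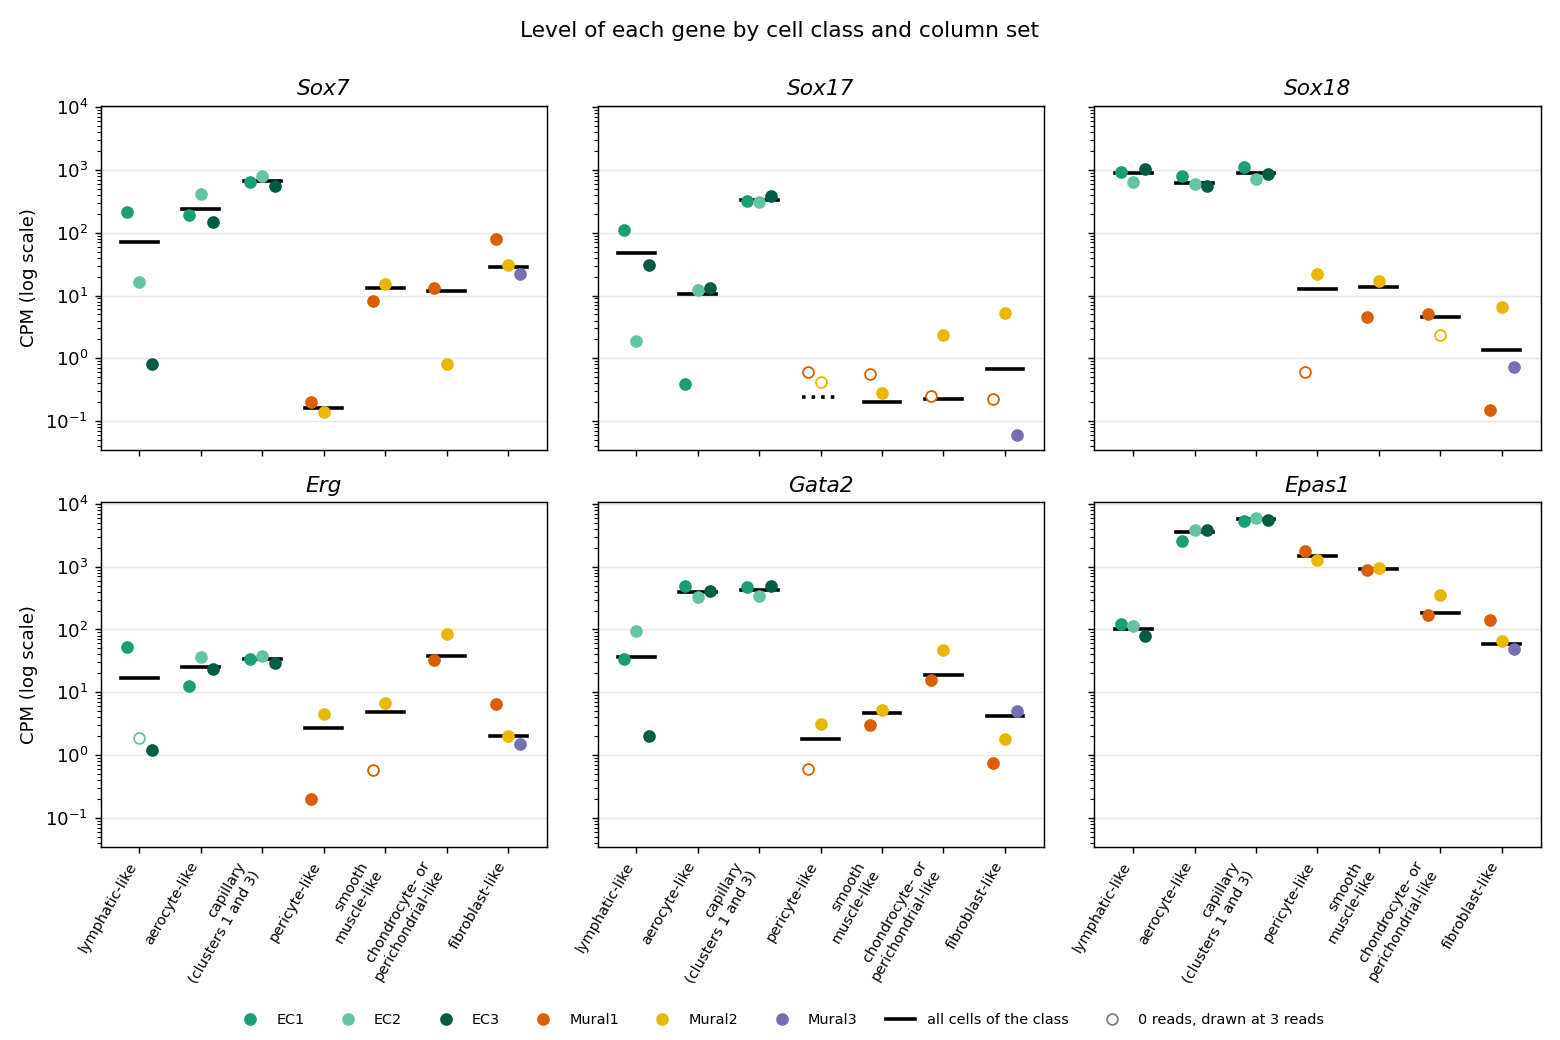
CPM (log axis) of each gene in 7 cell classes, with a bar for all cells of a class, points for its column sets of at least 5 cells and open points for 0 reads, drawn at 3 reads. Sox17 reads were concentrated in capillary cells, at 310 to 391 CPM by set, while Epas1 reached 1291 to 1809 CPM in pericyte-like cells as well.

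Sox7 had 216, 16.2 and 0.814 CPM in lymphatic-like cells of EC1, EC2 and EC3. In the same sets it had 192, 414 and 148 CPM in aerocyte-like cells and 653, 806 and 559 CPM in capillary cells. Both other endothelial classes stood below capillary cells in every set, and their own ranges overlapped. Pericyte-like cells held 2 reads of Sox7 in all, 0.164 CPM. Smooth muscle-like cells held 13.2 CPM and chondrocyte- or perichondrial-like cells 11.9 CPM. In fibroblast-like cells of Mural1, Mural2 and Mural3, Sox7 had 78.7, 30.7 and 21.9 CPM, a range that overlapped the lymphatic-like one and lay apart from the other mural classes.

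Sox17 had 110 CPM, 1.87 CPM and 30.1 CPM in lymphatic-like cells of EC1, EC2 and EC3. It had 0.396, 12.4 and 13.3 CPM in aerocyte-like cells and 323, 310 and 391 CPM in capillary cells. The capillary values lay apart from all others, while lymphatic-like and aerocyte-like ranges overlapped. Of the reads in lymphatic-like and aerocyte-like cells, 1 cell held 41.5% and 50.8%. No read was found in 71 pericyte-like cells. By the floor of 3 this allows up to 4.23% of cells with a read, and the exact upper limit was 5.06%; neither limits the share of cells that express the gene. Summed over sets, Sox17 had 0.202 CPM in smooth muscle-like cells, 0.224 CPM in chondrocyte- or perichondrial-like cells and 0.670 CPM in fibroblast-like cells. In fibroblast-like cells of Mural1, Mural2 and Mural3 it had 0, 5.34 and 0.0610 CPM, and 1 cell held 51.1% of the Mural2 reads. Those Mural2 cells also held 31.2 CPM of Cldn5, against 0.0757 CPM in Mural1 and 5.09 CPM in Mural3; the part of this in the Sox17 value was not tested. The 5 chondrocyte- or perichondrial-like cells of Mural2 had 2.39 CPM of Sox17, from 3 reads of 1 cell.

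Sox18 was the factor with the flattest profile inside endothelium. It had 921, 650 and 1036 CPM in lymphatic-like, 813, 589 and 546 CPM in aerocyte-like and 1097, 712 and 854 CPM in capillary cells of EC1, EC2 and EC3. The ranges of the classes overlapped, though by total reads aerocyte-like cells stood below capillary cells within every EC set. The thinned share of cells with a read was 95.5% of lymphatic-like, 83.3% of aerocyte-like and 84.3% of capillary cells. Pericyte-like cells had 0 CPM in Mural1 and 21.8 CPM in Mural2, and fibroblast-like cells 0.152, 6.53 and 0.732 CPM in Mural1, Mural2 and Mural3. The Mural2 pericyte-like cells also held 12.7 CPM of Cldn5, against 0 CPM in those of Mural1; the part of this in the Sox18 value was not tested.

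Erg transcripts were scarce. Lymphatic-like cells of EC1, EC2 and EC3 had 53.0, 0 and 1.22 CPM, aerocyte-like cells 12.5, 36.0 and 23.9 CPM, and capillary cells 33.5, 38.5 and 29.6 CPM. The 3 ranges overlapped, and 1 lymphatic-like cell held 72.4% of that class's Erg reads. Within every EC set aerocyte-like cells stood below capillary cells by total reads, narrowly in EC2. Chondrocyte- or perichondrial-like cells had 33.1 CPM in Mural1 and 84.6 CPM in Mural2, within or above the capillary range. Pericyte-like cells had 2.71 CPM, of which 1 cell held 97.0% of the reads. Smooth muscle-like cells had 4.90 CPM and fibroblast-like cells 2.01 CPM.

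Gata2 had 33.5, 94.3 and 2.04 CPM in lymphatic-like cells of EC1, EC2 and EC3. It had 487, 325 and 406 CPM in aerocyte-like cells and 480, 342 and 491 CPM in capillary cells. The last 2 classes overlapped, and lymphatic-like cells stood below both. Chondrocyte- or perichondrial-like cells had 18.7 CPM, inside the lymphatic-like range, and were above pericyte-like cells at 1.81 CPM, smooth muscle-like cells at 4.65 CPM and fibroblast-like cells at 4.20 CPM. A single cell held 95.5% of the pericyte-like Gata2 reads.

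Epas1 separated most classes. Lymphatic-like cells had 122, 116 and 77.8 CPM in EC1, EC2 and EC3, aerocyte-like cells 2572, 3799 and 3846 CPM, and capillary cells 5424, 5941 and 5625 CPM. Pericyte-like cells came next below the aerocyte-like ones, with 1809 CPM in Mural1 and 1291 CPM in Mural2, and smooth muscle-like cells had 875 and 959 CPM. Chondrocyte- or perichondrial-like cells had 168 CPM in Mural1 and 360 CPM in Mural2. Fibroblast-like cells had 140, 64.5 and 48.2 CPM in Mural1, Mural2 and Mural3. In descending order, each class stood clear of the next by set, except that the lymphatic-like and fibroblast-like ranges overlapped at the bottom. After thinning, 100% of aerocyte-like and of capillary cells, 98.6% of pericyte-like and 95.7% of smooth muscle-like cells held an Epas1 read, against 31.1% of fibroblast-like cells. Single capillary cells varied widely around these sums. Epas1 ran up to 32502 CPM with a median of 5441, and Sox18 up to 7778 CPM with a median of 633. The median cell had 152 CPM of Gata2, 94.7 CPM of Sox17 and 70.6 CPM of Sox7, and the highest cells had 3883, 4012 and 5783 CPM. For Erg the median cell had no read and the highest 1586 CPM. The lowest cell had 0 CPM of Sox7, Sox17, Sox18, Erg and Gata2. Median depth was 191753 reads in capillary, 146250 in pericyte-like and 371070 in fibroblast-like cells before thinning.

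**Figure D2:**
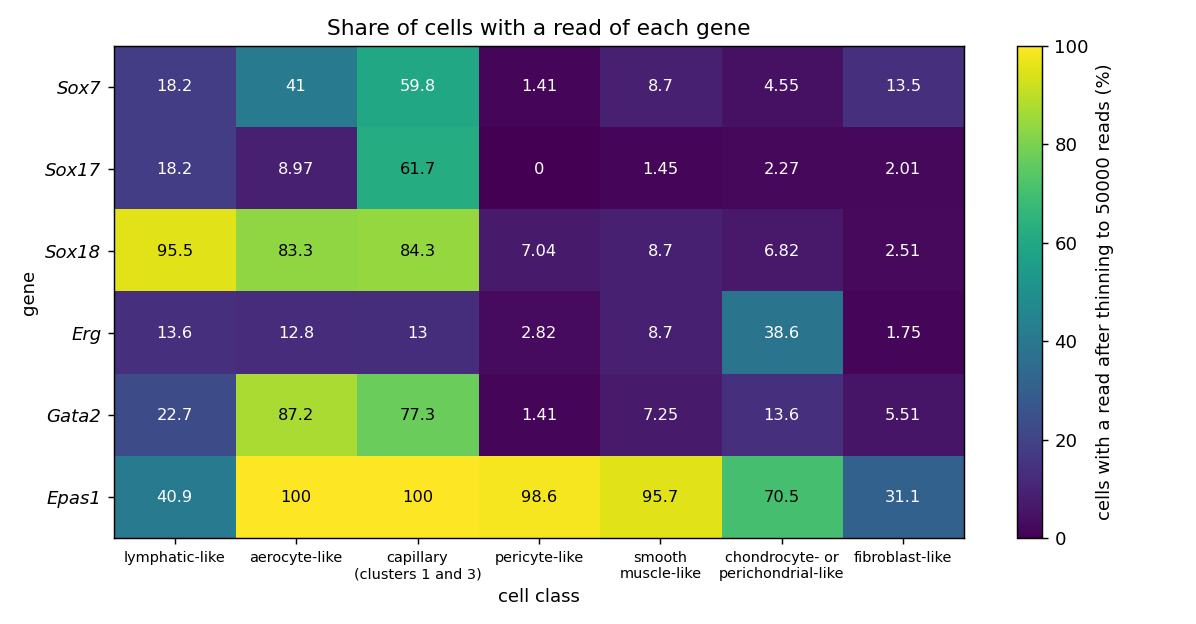
Percentage of cells with a read of each gene (rows) in 7 cell classes (columns), after thinning each cell to 50000 reads. Epas1 was found in 98.6% of pericyte-like cells, while Sox7, Sox17, Sox18, Erg and Gata2 were each found in at most 7.04% of them.

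Capillary cells were set against fibroblast-like cells to ask which factors were higher in them. All capillary cells but 2 of Mural1 lay in the EC sets, and no fibroblast-like or pericyte-like cell did. Class therefore cannot be told apart from column set and sort, here or against pericyte-like cells. Calls followed size alone: 50 CPM or more on the higher side, a thinned read in 25% or more of its cells, and a fold of 4, or of 2 within endothelium. Of the 6 genes, 5 were called higher in capillary cells, where 14.7% of the genes held out of the clustering that passed the level filter were called higher and 18.7% lower. Sox18 had 888 CPM in capillary cells and 1.35 CPM in fibroblast-like cells, 656-fold (95% counting interval 570 to 758). The fold was 505 for Sox17 (414 to 623), 103 for Gata2 (94.9 to 111), 97.1 for Epas1 (95.0 to 99.2) and 24.1 for Sox7 (23.4 to 24.9). These intervals cover counting error, and single column sets moved the folds further. On the log2 scale Sox17 differed by 8.98, by 6.82 without Mural3 and by 12.6 without Mural2. Sox18 differed by 9.36, by 7.90 without Mural3 and by 10.4 without Mural2. Without Mural3, Gata2 differed by 8.34 in place of 6.68, Epas1 by 5.86 in place of 6.60 and Sox7 by 3.71 in place of 4.59. All 5 were called without each set. Erg was 16.9-fold higher (15.0 to 19.1) but, at 34.0 CPM against 2.01 CPM, stayed under the level filter. TMM and median-ratio scaling moved every log2 difference by -0.51 and -0.54 and gave 177 higher and 357 lower, and 176 higher and 360 lower genes, against 229 and 292 by total reads; the same 5 factors were called.

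Sox7 in fibroblast-like cells was set beside Cldn5, the gene of the endothelial reporter. There were 0.0667 Sox7 reads per Cldn5 read in capillary cells and 3.67 in fibroblast-like cells. Of 13 fibroblast-like cells with a Cldn5 read after thinning, 4 held a Sox7 read (30.8%, exact interval 9.09 to 61.4%), at 53.1 CPM. Of 386 without one, 50 did (13.0%, 9.77 to 16.7%), at 27.4 CPM, against 28.1 CPM in the whole class. The other factors were also more often read in the 13 cells: Epas1 in 10 of them against 114 of the 386, Gata2 in 3 against 19, Sox17 in 3 against 5, Sox18 in 2 against 8 and Erg in 1 against 6. The part of endothelial RNA in these values was not tested.

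Against pericyte-like cells, 4 of the 6 genes were called higher in capillary cells, where 10.2% of tested genes were called higher and 14.7% lower. Sox17 was at least 1374-fold higher, with pericyte-like cells set to 3 reads; the lower 95% counting limit of the fold was 1117. Gata2 was 239-fold higher (158 to 381) and Sox18 69.3-fold higher (59.2 to 81.6). Sox7 was also called, with 678 CPM in capillary cells and 2 reads in pericyte-like cells, a ratio of 4129 (1143 to 34097). Here too the folds hung on single sets. On the log2 scale Sox18 differed by 6.12, by 5.34 without Mural1 and by at least 10.5 without Mural2, where no read was left in pericyte-like cells. Gata2 differed by 7.90, by 7.14 without Mural1 and by at least 9.49 without Mural2, again with no read left. With pericyte-like cells set to 3 reads, Sox17 differed by 10.4, by 9.66 without Mural1 and by 9.14 without Mural2, and Sox7 by 11.4 and by 10.1 without Mural2. These 4 were called without each set. Epas1 had 5674 CPM in capillary cells and 1504 CPM in pericyte-like cells, 3.77-fold (3.72 to 3.83), just under the fold of 4. It was called with TMM or median-ratio scaling, at log2 differences of 2.08 and 2.04 against 1.92 by total reads, and without Mural1, at 2.14. Those scalings moved every difference here by 0.17 and 0.12. Erg was 12.6-fold higher (8.92 to 18.3) and under the level filter.

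Epas1 was the only one of the 6 genes called between pericyte-like and fibroblast-like cells, where 11.7% of tested genes were called higher and 10.2% lower. It was 25.7-fold higher in pericyte-like cells (25.1 to 26.4). Within Mural1 the fold was 12.9 and within Mural2 20.0, and without Mural3 the log2 difference was 3.94, against 4.69 with it. Capillary cells held 0.558 Epas1 reads per Cldn5 read and pericyte-like cells 201. Of the 67 pericyte-like cells without a Cldn5 read after thinning, 66 held an Epas1 read, at 1517 CPM. TMM and median-ratio scaling moved all differences by -0.61 and -0.56, with 151 higher and 317 lower, and 154 higher and 309 lower genes, against 248 and 217 by total reads; Epas1 was called under both. Sox7 ran the other way without reaching the filter, at 0.164 CPM in pericyte-like and 28.1 CPM in fibroblast-like cells.

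**Figure D3:**
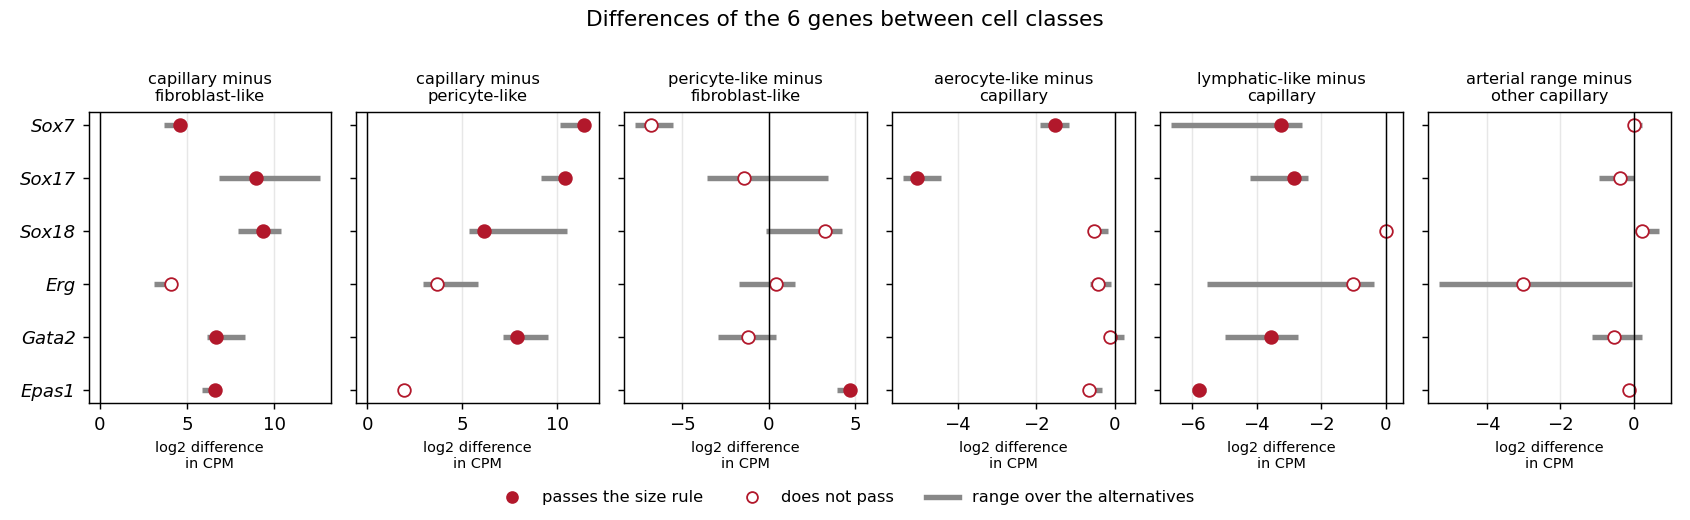
Log2 difference in CPM of each gene in 6 comparisons (points; filled where the size rule was passed), with grey bars for the lowest and highest value over the alternative settings. Epas1 was the only gene filled between pericyte-like and fibroblast-like cells, at 4.69.

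Aerocyte-like cells were set against capillary cells of the EC sets to compare the main cell types of the alveolar capillary bed. Sox17 and Sox7 were called lower in aerocyte-like cells, where 14.5% of tested genes were called higher and 12.7% lower. Sox17 had 10.4 CPM in aerocyte-like cells and 339 CPM in capillary cells, 32.7-fold lower (28.9 to 37.1). By set the ratio was 543 in EC1, 24.9 in EC2 and 29.4 in EC3. In EC1 aerocyte-like cells held 0.396 CPM and were set to 3 reads for that ratio. Sox7 had 238 CPM in aerocyte-like cells and 679 CPM in capillary cells, 2.86-fold lower, with 3.41, 1.95 and 3.78 in EC1, EC2 and EC3, so EC2 alone lay under the fold of 2. The other genes were not called: aerocyte-like cells were 1.59-fold lower in Epas1, 1.43-fold lower in Sox18, 1.35-fold lower in Erg and 1.09-fold lower in Gata2. Gata2 turned to 0.22 higher on the log2 scale with median-ratio scaling. Aerocyte-like cells also had a deeper median of 326874 reads, against 191753 in capillary cells, and TMM and median-ratio scaling moved differences by 0.28 and 0.34. They gave 257 higher and 97 lower, and 277 higher and 91 lower genes, against 174 and 152 by total reads; Sox17 and Sox7 were called lower under both.

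The SOXF genes were then counted in single cells. After thinning, 5.13% of aerocyte-like cells (1.41 to 12.6%) held reads of all 3 genes, against 33.1% of capillary cells (29.5 to 36.8%). In capillary cells of EC1, EC2 and EC3 the share was 32.2%, 32.8% and 34.2%. Multiplying the separate shares of the genes gives 3.07% for aerocyte-like and 31.1% for capillary cells, close to those counts. The commonest state of aerocyte-like cells was Sox18 alone, in 42.3%, followed by Sox7 with Sox18, in 33.3%. In capillary cells all 3 together came first, followed by Sox17 with Sox18 in 19.1% and Sox7 with Sox18 in 18.0%. Among the 22 lymphatic-like cells, 63.6% held 1 of the genes and 4.55% all 3. SMART-seq2 misses transcripts at random in single cells, so the absence of a read is not absence of the transcript.

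**Figure D4:**
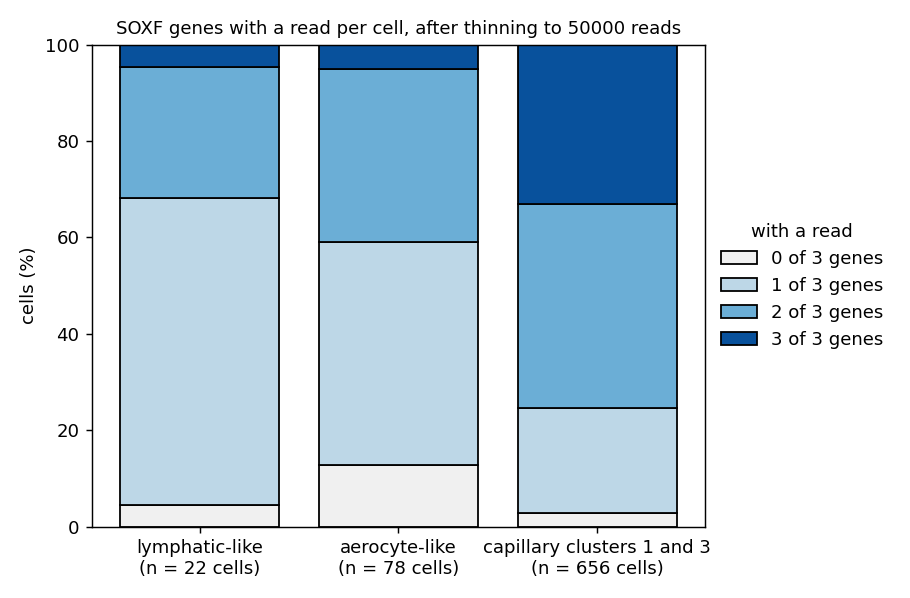
Share of cells (stacked bars, %) with a read of 0, 1, 2 or all 3 of Sox7, Sox17 and Sox18 after thinning, in lymphatic-like, aerocyte-like and capillary cells. All 3 were found in 5.13% of aerocyte-like and 33.1% of capillary cells.

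Lymphatic-like cells were set against capillary cells of the same sets. Of the 6 genes, 4 were called lower in lymphatic-like cells, where 31.9% of tested genes were called higher and 18% lower. Epas1 had 102 CPM in lymphatic-like cells and 5676 CPM in capillary cells of the EC sets, 55.9-fold lower (51.6 to 60.7), with 44.6, 51.4 and 72.3 in EC1, EC2 and EC3. Gata2 had 36.9 CPM in lymphatic-like and 433 CPM in capillary cells, 11.7-fold lower (10.3 to 13.5). Sox7 was 9.58-fold lower (8.70 to 10.6) and Sox17 7.22-fold lower (6.41 to 8.16). Of the lymphatic-like reads, 1 cell held 50.8% for Sox7, 41.5% for Sox17, 37.5% for Gata2 and 30.5% for Epas1. Sox18 was not called, with 895 CPM in lymphatic-like and 880 CPM in capillary cells, a ratio of 1.02 (0.989 to 1.05). The sets spread widely for 3 genes. The ratio was 14.3, 3.63 and 241 in EC1, EC2 and EC3 for Gata2, 3.02, 49.7 and 458 for Sox7, and 2.92, 165 and 13.0 for Sox17. For the Sox7 ratio in EC3, lymphatic-like cells, at 0.814 CPM, were set to 3 reads. On the log2 scale Gata2 differed by -3.55, by -4.99 without EC2 and by -2.71 without EC3. Sox7 differed by -3.26, by -6.65 without EC1 and by -2.59 without EC3. Sox17 differed by -2.85 and by -4.19 without EC1. The 22 cells lie 7, 6 and 9 to a set, so leaving out any EC set takes the class under the minimum of 20 cells and ends all calls. TMM and median-ratio scaling moved differences by -0.21 and -0.14, which put Sox18 slightly below the capillary level, at a log2 difference down to -0.18.

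Arterial identity was examined as a range, since no arterial cluster formed. Capillary cells of the EC sets with reads of at least 5 of 12 arterial markers numbered 41, and 613 had fewer. These markers are not particular to arterial cells. Their summed level was 2534 CPM in capillary cells, 402 in aerocyte-like, 4523 in lymphatic-like and 1545 in pericyte-like cells. It was 6515 in smooth muscle-like, 22292 in fibroblast-like and 35864 in chondrocyte- or perichondrial-like cells. What part of the marker count comes from arterial identity was not tested. Over all 656 capillary cells, 30 held 5 markers, just inside the minimum, and 78 held 4, just outside it. None of the 6 genes was called between them, where 5.88% of tested genes were called higher and 6.51% lower. Sox17 had 265 CPM in the arterial range and 344 CPM in other capillary cells. The sets disagreed, with 260 against 327 CPM in EC1, 370 against 305 CPM in EC2 and 84.0 against 406 CPM in EC3, where the range held 9 cells. Gata2 had 516 CPM in the arterial range against 477 CPM in the others in EC1, 206 against 352 CPM in EC2 and 167 against 506 CPM in EC3. Without EC3 the log2 difference of Sox17 was 0.02, against -0.38 with it and -0.94 without EC2. That of Gata2 was -0.52, and -1.15 without EC1, where it was called lower. With 1 marker more, which left under 20 cells in the range, the Gata2 difference was 0.24. Summed over sets, Sox18 had 1012 CPM in the arterial range and 871 CPM in the others, Sox7 had 685 and 679 CPM, Gata2 307 and 441 CPM, and Epas1 5194 and 5707 CPM. Erg had 4.49 CPM in the arterial range and 36.1 CPM in the others, at 4.88% and 13.4% of cells, under the filter on both sides. This Erg difference hung on the marker minimum: its log2 value was -3.01, and -0.06 with 1 marker fewer. Over all capillary cells, Erg had 48.4 CPM with 4 markers, 0.969 CPM with 5 and 16.7 CPM with at least 6. TMM and median-ratio scaling moved differences by 0.11 and 0.16 and gave 77 higher and 52 lower, and 89 higher and 49 lower genes, against 56 and 62 by total reads. Over the count of arterial markers, Sox7 was at 386 CPM in the 25 cells with none, 815 CPM in those with 4 and 579 CPM in the 12 cells with at least 6. Of the Sox7 reads in those 12 cells, 1 cell held 50.1%. Sox17 had 406 CPM in cells with 2 markers, the highest of the 7 bins. Sox18 had 1124 CPM in cells with 4 markers and 1535 CPM in the 12 with at least 6, where 1 cell held 38.2% of the reads.

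**Figure D5:**
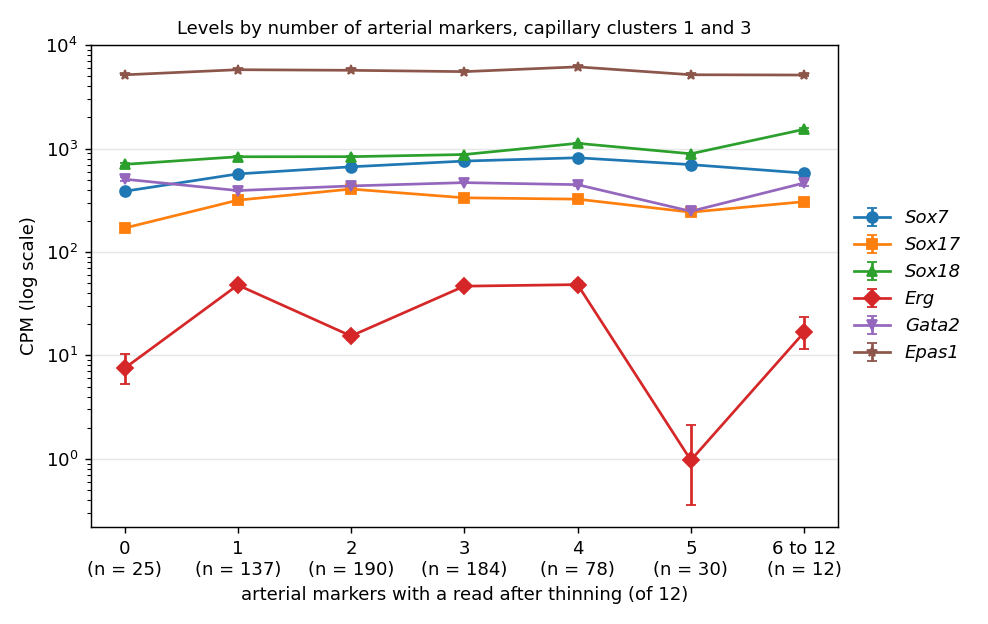
CPM (log axis, exact 95% counting intervals) of each gene in capillary cells by the number of arterial markers with a read, from 0 to at least 6 of 12. Sox17 was highest, at 406 CPM, in cells with 2 markers. The 1535 CPM of Sox18 in the 12 cells with at least 6 markers rests to 38.2% on 1 cell, and the intervals cover counting error alone.

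Whole column sets were compared as well, without any clustering. They include the cells of the mixed cluster, 85 of the 233 cells of Mural2 and 60 of the 374 of Mural3. All 5 factors other than Erg were called higher in the EC sets than in Mural3, where 14.4% of all tested genes were called higher and 18.2% lower. Epas1 had 5051 CPM in the EC sets and 99.1 CPM in Mural3, 51.0-fold, Gata2 was 63.1-fold and Sox7 27.7-fold higher. The same 5 were called higher against Mural1 and Mural2, where 10.1% of tested genes were called higher and 17% lower. There Epas1 was 7.99-fold higher, with 5051 CPM in the EC sets and 632 CPM in Mural1 and Mural2, Gata2 38.9-fold and Sox7 19.9-fold. The log2 difference of Gata2 there was 5.28, 5.93 without Mural2 and 6.39 without doublet-like cells. Against Mural3, leaving out the mixed cells gave 12.2 in place of 8.05 for Sox17 and 6.74 in place of 5.67 for Epas1. Erg was 14.3-fold higher than in Mural3 and 3.57-fold higher than in Mural1 and Mural2, and was not called in either. TMM and median-ratio scaling moved differences by -0.42 and -0.46 against Mural3.

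Related families were counted under the same size rule. Outside Erg, 5 of 22 ETS-family genes passed the level filter between capillary and fibroblast-like cells; 4 were called higher in capillary cells and 0 lower, beside 14.7% and 18.7% of all genes that passed, with a median log2 difference of 1.39 over the 12 that averaged at least 10 CPM between the classes, against 0.33 over all such genes. Elk3 had 464 CPM in capillary and 18.1 CPM in fibroblast-like cells, Ets1 658 and 33.7 CPM, and Fli1, the nearest relative of Erg, 124 and 8.06 CPM. In aerocyte-like cells Ets1 (228 CPM against 660 CPM in capillary cells) and Elk3 (141 against 464 CPM) were called lower, 2 of the 5 that passed, beside 12.7% of all genes that passed. Between lymphatic-like and capillary cells 7 ETS genes passed, beside 31.9% of all such genes called higher and 18% lower. In lymphatic-like cells 2 ETS genes were called higher, Elk3 at 1117 CPM against 464 CPM and Etv1 at 84.6 CPM against 1.04 CPM in capillary cells, and Ets2 was called lower.

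Among 14 GATA factors and partners, 3 passed the filter between capillary and fibroblast-like cells, of which 1 was called higher and 0 lower, beside the same 14.7% and 18.7%. It was Lmo2, a bridging protein of GATA complexes, with 264 CPM in capillary and 37.6 CPM in fibroblast-like cells. In the HIF system outside Epas1, 2 of 10 genes passed in that comparison and 0 were called, with a median log2 difference of 0.13. Hif1a, the other well-known oxygen-regulated subunit, had 67.0 CPM in capillary and 60.7 CPM in fibroblast-like cells, and Arnt, the shared partner, 76.9 and 84.7 CPM. In lymphatic-like cells, where Epas1 was lower, Hif1a had 185 CPM against 66.3 CPM in capillary cells and Arnt 203 CPM against 77.1 CPM, and both were called higher. They were the 2 of 10 that passed, in a comparison where 31.9% of all genes that passed were called higher.

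Of 22 genes described as targets of ERG, SOXF or GATA2, 7 were not used to build the classes. In capillary cells 6 of those 7 passed the filter and the 6 were called higher than in fibroblast-like cells, beside 14.7% of all genes that passed, Cldn5 among them, which drove the sort. Edn1, the vasoconstrictor endothelin 1, had 505 CPM in capillary and 2.16 CPM in fibroblast-like cells, and the Notch ligand Dll4 278 and 1.12 CPM. In aerocyte-like cells 6 of 7 passed and 2 were called lower, beside 12.7%: Edn1 at 7.99 CPM against 506 CPM and Notch4 at 170 CPM against 387 CPM in capillary cells, or 1 lower and 1 higher under both other scalings. In lymphatic-like cells 6 of 7 passed and 4 were called lower, beside 18%. Of 15 genes described as hypoxia-inducible factor targets, 6 passed between capillary and fibroblast-like cells. Of these, 1 was called higher and 3 lower, beside 14.7% and 18.7% of all genes that passed, or 4 lower under both other scalings. Vegfa, the endothelial growth factor, had 274 CPM in capillary and 14.1 CPM in fibroblast-like cells. Angptl4 had 0.655 and 159 CPM, and Adm 0.331 and 74.8 CPM.

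The pattern of each factor over the 10 clusters was set against 8243 genes by Pearson's r of log2(CPM + 1), a description in which points share libraries and depth. Sox17 came nearest to Cd93 (0.985), Tmem44 (0.984) and Tor3a (0.981), and Sox18 to Tie1 (0.986), Cd38 (0.985) and Map3k11 (0.982). Sox7 came nearest to Smarca2 (0.945), Zfp410 (0.938) and Cers4 (0.933), and Gata2 to Ppp1r13b (0.988), Ccdc85a (0.969) and Efnb2 (0.958). Epas1 came nearest to Cd97 (0.990), Dnajc8 (0.962) and Esam (0.948), and Erg to Tspan13 (0.930), Plxna4 (0.929) and Myo18a (0.899). Of these neighbours only Tmem44, Cd38, Map3k11, Cers4, Dnajc8 and Plxna4 were held out of the clustering. The others were open to it, which favours them here, and Cd93, Tie1, Efnb2 and Esam are cell type markers. The 10 clusters include the mixed one. Between the factors, r was highest for Sox7 with Gata2 (0.906) and lowest for Sox7 with Epas1 (0.440).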

How the data were processed

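The authors deposited a matrix of raw read counts and a second one of normalized scores. All 33008288 scores lay within 0.5 of reads × 500000 / the cell's total. The submitters' processing notes name STAR 2.4.2a and the build mm10. How reads were assigned to genes is not given in the sources used here. The genes and lists were chosen with earlier results of these data known.

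All 1504 cells were kept (100229 to 609242 reads, median 240178). Clusters came from scanpy 1.11.5 and leidenalg 0.10.2 (2000 variable genes, 30 components, 15 neighbours, resolution 1, seed 1). Held out were the 6 genes, the non-marker genes among the 118 listed, the reporter genes and a random part of the rest. These came to 10961 genes, of which class comparisons used those past the level filter. Class names need 40% of a class's markers per cell and mixed clusters 50% of the epithelial or leukocyte markers, both set with the data seen. Doublet-like cells (at least 5 endothelial and 5 mural or fibroblast markers) were kept. No doublet caller was run.

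Reads were summed per class (CPM), with exact 95% intervals: Poisson for levels, conditional for folds, Clopper-Pearson for shares after thinning to 50000 reads. A class under 3 reads was set to 3 reads for calls, log2 differences and ratios by set. SMART-seq2 has no molecular identifiers, and these intervals and floors describe counting error alone. The size rule was run on simulated counts with counting error alone, for genes well above the level filter and folds well past the rule. That run cannot tell how the rule does near its limits or with spread between cells and sets. Exonic lengths came from GENCODE on GRCm38. Scaling alternatives used R 4.3.3 and edgeR 4.0.16 for TMM factors only. Genes named are the 6 factors, up to 4 per list and comparison (called genes by fold, then by CPM), the 3 genes nearest in pattern and the reporter genes.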

Additional observations from a re-analysis of the deposited data

Results flagged for a closer look

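These values stand out in classes that no comparison used. Epas1 had 925 CPM in smooth muscle-like cells, with a read in 95.7% of them after thinning and 41.6 Epas1 reads per Cldn5 read, against 0.558 in capillary cells. Erg had 37.9 CPM in chondrocyte- or perichondrial-like cells, with a read in 38.6% of them, against 34.0 CPM and 13.0% in capillary cells. Of the 40 chondrocyte- or perichondrial-like cells without a Cldn5 read, 17 held an Erg read, and their level was 42.5 CPM. Epas1 had 186 CPM in chondrocyte- or perichondrial-like cells, with a read in 70.5% of them. These 44 cells came from Mural1 (39 cells) and Mural2 (5 cells), so the class rests almost wholly on 1 column set.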

How the results depend on the processing

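The number of the 6 genes called was recomputed under 126 alternatives and stayed within 1.5 times in 119. No called difference changed direction. Some alternatives had a fixed outcome and are counted among these. Leaving out an EC set cannot change pericyte-like against fibroblast-like cells, which hold no EC cell. A class under 20 cells can give no call. Between pericyte-like and fibroblast-like cells 1 gene was called, 3 (Sox7, Sox18, Epas1) with no minimum of CPM or cells and 2 (Sox7, Epas1) without Mural3. Between lymphatic-like and capillary cells 4 were called and 0 without EC1, EC2 or EC3, since under 20 lymphatic-like cells remained. In the arterial range 0 were called, against 1 (Erg) with no minimum and 1 (Gata2) without EC1; the cause was not tested. Co-detection of the SOXF genes in capillary cells, 33.1%, was 40.1% with no thinning and 27.0% at 2 reads or more. Taking cluster 1 or cluster 3 alone, chosen after seeing the data, changed no call of the 6 genes. With no minimum, counts over all genes multiplied, for example to 2352 higher and 1223 lower between capillary and fibroblast-like cells. In the arterial range they came to 108 higher and 107 lower without EC1, 193 and 122 without EC2, and 10 and 8 with 1 marker fewer. EC against Mural3 without Mural3 was not run, and the range with 1 marker more had under 20 cells. Erg was read in 13.0% of capillary cells after thinning and in 15.7% at full depth, so its differences between classes rest on few cells.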

Other observations

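Other transcription factors and 1 growth factor of the lists, chosen here after their values were seen, divided the same classes. Sox11, a SOXC factor, had 0 CPM in lymphatic-like, 32.9 in aerocyte-like and 274 in capillary cells, and 103 CPM in pericyte-like against 1.80 CPM in fibroblast-like cells. By set, aerocyte-like cells had 78.6, 42.8 and 7.68 CPM in EC1, EC2 and EC3, against 295, 288 and 239 CPM in capillary cells. Gata3 had 0 CPM in lymphatic-like, 0.893 in aerocyte-like and 99.5 in capillary cells, with a read in 23.8% of capillary cells after thinning, which is under the size rule. Vegfa had 0.342 CPM in lymphatic-like, 2.80 in aerocyte-like and 274 in capillary cells.

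Nr2f2 (COUP-TFII), known from veins, lymphatics and mesenchyme, had 328 CPM in lymphatic-like, 0.162 in aerocyte-like and 5.88 in capillary cells, and 551 CPM in pericyte-like cells. Foxf1, a factor of lung mesenchyme and endothelium, had 1 read in lymphatic-like cells (0.171 CPM), 808 CPM in aerocyte-like, 558 in capillary and 302 in pericyte-like cells, against 48.5 CPM in fibroblast-like cells.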
